A study of Mus musculus with 3 samples.

Results

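The explant library held 200 cells that the authors annotated as retinal ganglion cells (RGCs), of 5607 explant cells in all. They were taken by that annotation alone, and their raw transcript counts were summed within each explant or over all explants. The library pooled 8 samples of wild-type CD1 retina dissected at E14 and grown on membranes for 6 days to an age equivalent to P0, 2 samples at each of 0, 5, 50 and 500 nM of a small-molecule agonist of the somatostatin receptor *Sstr2*. A sample is called an explant here, and the sources do not state how many retinas it held. The nearest comparison was the 85 RGCs among 5706 cells of a P0 library from uncultured, untreated retina of mixed C57BL/6 / CD1 background, with 1 *Sstr2* wild-type (+/+), 2 heterozygous (+/-) and 2 knockout (-/-) retinas. The knockout allele was a germline targeted deletion, present in all cells of those retinas, and loss of the receptor was not tested here. The remaining library, from P14 retina, brought the series to 14611 cells and was used only to count shared cell barcodes. The explant and P0 libraries shared 9 barcodes, 1 of them on an explant RGC, whose P0 counterpart was not an RGC.

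RGCs are the first neurons born in the retina and the only ones whose axons leave the eye. Progenitors that switch on *Atoh7* give rise to them, and *Isl1* and the POU-domain factors *Pou4f1* and *Pou4f2* then run the differentiation program. Dissection cuts the axons in the optic nerve, and most RGCs in cultured retina are known to die. Starburst amacrine cells, the cholinergic interneurons of the inner retina, also express *Isl1* but not the Pou4f genes. They carry *Slc18a3*, the vesicular acetylcholine transporter, *Chat*, the enzyme that makes acetylcholine, and the surface receptor *Megf10*, and they keep *Sox2*.

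The promoters of the genes that divided these cells are given first. *Isl1* was shared by every group of cells described below, *Pou4f1* and *Snhg11* marked some of them, and *Slc18a3* the others. Each window is the 250 bases before the gene start from RefSeq on GRCm38, read 5′ to 3′ on the gene's strand, and the capitals mark CANNTG, the E-box that basic helix-loop-helix factors such as *Atoh7* and *Neurog2* bind. The motif reads as CANNTG on both strands.
Isl1: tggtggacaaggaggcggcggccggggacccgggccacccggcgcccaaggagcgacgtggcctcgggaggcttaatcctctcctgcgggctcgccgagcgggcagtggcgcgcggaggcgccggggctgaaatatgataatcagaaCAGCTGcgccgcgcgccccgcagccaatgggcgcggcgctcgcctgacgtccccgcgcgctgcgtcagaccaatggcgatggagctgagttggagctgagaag
Pou4f1: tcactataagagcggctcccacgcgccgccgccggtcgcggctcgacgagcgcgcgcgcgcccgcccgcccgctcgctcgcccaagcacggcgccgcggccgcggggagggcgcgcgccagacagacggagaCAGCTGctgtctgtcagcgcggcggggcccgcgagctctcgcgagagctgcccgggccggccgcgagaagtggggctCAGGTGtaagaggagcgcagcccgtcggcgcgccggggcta
Snhg11: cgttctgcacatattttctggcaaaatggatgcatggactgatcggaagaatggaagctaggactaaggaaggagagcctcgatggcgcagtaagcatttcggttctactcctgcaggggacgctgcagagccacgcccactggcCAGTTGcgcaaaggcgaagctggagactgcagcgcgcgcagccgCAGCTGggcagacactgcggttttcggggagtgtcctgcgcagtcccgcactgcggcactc
Slc18a3: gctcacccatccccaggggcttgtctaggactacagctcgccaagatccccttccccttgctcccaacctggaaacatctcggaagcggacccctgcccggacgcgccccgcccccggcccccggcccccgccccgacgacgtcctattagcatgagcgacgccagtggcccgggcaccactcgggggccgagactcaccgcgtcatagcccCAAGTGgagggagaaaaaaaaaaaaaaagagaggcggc
The windows lie at chr13:116309689-116309938 on the minus strand for *Isl1*, chr14:104468000-104468249 on the minus strand for *Pou4f1*, chr2:158375463-158375712 on the plus strand for *Snhg11* and chr14:32464851-32465100 on the minus strand for *Slc18a3*. The match in *Isl1* began 103 bases before the gene start, those in *Pou4f1* 118 and 41, those in *Snhg11* 105 and 61, and the one in *Slc18a3* 38. Of 32851 RefSeq windows of this length, 21753 (66.2%) held at least 1 match. A match is a description of the letters and not evidence of binding.

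The 6 markers used to check the annotation, *Isl1*, *Pou4f1*, *Pou4f2*, *Ebf1*, the long noncoding RNA *Snhg11* and the secreted protein *Nell2*, were all higher in the explant RGCs than in every other explant cell type. Levels are CPM, the count of a gene's unique molecular identifiers (UMIs) scaled to a common total, pooled over the cells of a type. *Isl1* stood at 779 CPM against 12.2 in amacrine cells, 11.1 in photoreceptors, 24.3 in neurogenic progenitors and 9.71 in primary progenitors. *Pou4f1* stood at 419 CPM, and the highest of the other types, photoreceptors, at 11.5. *Snhg11* stood at 833 CPM against at most 10.9, and *Ebf1* at 1311 CPM against at most 47.2. *Nell2* stood at 256 CPM against at most 5.47, and *Pou4f2*, which specifies RGCs, at 56.6 CPM against at most 2.82. The cells were annotated from clusters of these same counts, so these differences carry no test. Of the other 18 known RGC genes with enough counts, 15 were at least 2-fold higher and 2 at least 2-fold lower in RGCs than in the remaining explant cells, with a median log2 ratio of 3.05. Over all 10398 genes with at least 100 UMIs, 7.43% were that much higher and 9.35% that much lower, with a median of -0.15. Somatostatin (*Sst*), the ligand of *Sstr2* and a peptide that young RGCs are known to make, was at 1.49 CPM, which is 1 UMI in all 200 cells. *Shh*, a mitogen that RGCs secrete, was at 8.94 CPM, and galanin (*Gal*) and *Sstr2* were each at 1.49 CPM.

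**Figure D1:**
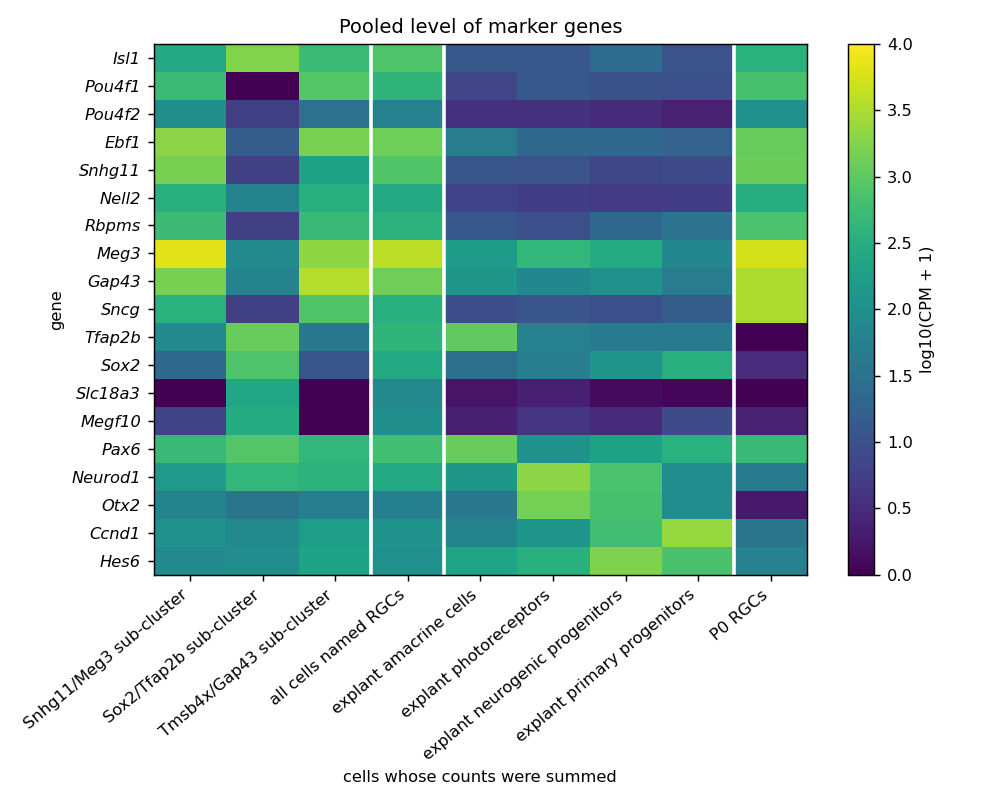
Pooled level of RGC and starburst amacrine marker genes (rows) as colour, log10(CPM + 1), in the 3 sub-clusters of the explant RGCs, all explant RGCs, the other 4 explant types and P0 RGCs (columns). Isl1 is high in all 3 sub-clusters (262, 1774 and 541 CPM), whereas Pou4f1 is at 0 and Slc18a3 at 241 CPM in the Sox2/Tfap2b sub-cluster.

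Ranked by the ratio of their pooled CPM to that of the highest other explant type (10 CPM added to both), the leading genes of the RGCs were *Snhg11* (40.2-fold), *Ebf1* (23.1-fold), *Isl1* (23.0-fold), *Pou4f1* (19.9-fold) and *Nell2* (17.2-fold). The next were *Scg2*, which makes secretogranin, the copine gene *Cpne4*, the adenylyl cyclase gene *Adcy1*, the transcript *D130079A08Rik* and *Sncg*, the gamma-synuclein of RGC axons. The extracellular matrix proteoglycan *Vcan*, the growth-associated protein gene *Gap43* (9.66-fold), the transcription factor *Ebf3* (9.64-fold), the imprinted noncoding RNA *Meg3* and the RNA-binding protein gene *Rbpms*, a standard RGC marker, were also among the first 20. Among the genes lowest in RGCs were *Apoe*, at 16.4 CPM against at least 73.9 in every other type, the neurogenic progenitor gene *Rgs16*, at 2.98 CPM against at least 29.2, and the transcription factor *Zic2*, at 10.4 CPM against at least 45.1. *Scg2* (52.5, 956 and 40.8 CPM in the sub-clusters below), *Kcnk2* (52.5, 639 and 10.2 CPM) and *Vcan* (105, 326 and 81.6 CPM) were carried mostly by 1 sub-cluster, so the list mixes genes of different cells.

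Clustering of the 200 cells among themselves gave 3 sub-clusters, called here by their leading genes. They were formed from these same counts, so differences in level between them carry no test. The *Snhg11*/Meg3 sub-cluster held 119 cells, the *Sox2*/Tfap2b sub-cluster 56 and the *Tmsb4x*/Gap43 sub-cluster 25. Clustering with another random seed put 118, 56 and 24 of these cells together again, and a finer resolution split 118 cells of the first group over 3 clusters and kept the 56 and the 25 in 1 each.

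The *Sox2*/Tfap2b sub-cluster went against the RGC name on most markers. *Pou4f1* had 0 UMIs in its 56 cells, which allows a share of up to 5.36% of cells with a UMI, against 536 CPM in the *Snhg11*/Meg3 sub-cluster and 888 CPM in the *Tmsb4x*/Gap43 sub-cluster. *Ebf1* was at 14.2 CPM against 2003 and 1551, *Snhg11* at 4.73 against 1486 and 204, and *Rbpms* at 4.73 against 552 and 490. *Nell2* was lower than in the other sub-clusters, at 61.5 CPM against 351 and 326, but above the 4.64 CPM of the remaining explant cells. *Isl1* was higher than in both: all 56 cells had an *Isl1* UMI, and the level was 1774 CPM against 262 and 541. Of 18 other RGC genes, 3 were at least 2-fold higher and 2 at least 2-fold lower than in the remaining explant cells, with a median log2 ratio of -0.01. For sub-clusters of these sizes the share of all genes past those limits was 5.31% higher and 11.6% lower here, 10.1% and 17.3% in the *Snhg11*/Meg3 sub-cluster, and 9.05% and 18.4% in the *Tmsb4x*/Gap43 sub-cluster.

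These 56 cells held UMIs of 5 of the 6 starburst amacrine markers examined, though few of *Chat* and *Fezf1*. *Slc18a3* stood at 241 CPM, with a UMI in 32 of 56 cells (57.1%). It had 0 UMIs in the other 144 RGCs, at a median depth of 2992.5 UMIs, which allows up to 2.08% of cells with a UMI. It was found in 12 of the 5407 explant cells outside the RGC annotation (0.222%), at a median depth of 4217 UMIs against 3326 in the 56. *Megf10* was at 303 CPM, with a UMI in 38 of the 56 cells, and *Sox2* at 795 CPM, with a UMI in 48. *Chat*, at 33.1 CPM, rests on 7 UMIs in 6 cells, and the transcription factor *Fezf1*, at 28.4 CPM, on 6 UMIs in 4 cells. The choline transporter gene *Slc5a7* was not detected. *Sox2* was at 22.1 and 10.2 CPM in the other sub-clusters and at 329 CPM in primary progenitors, which also express it. *Tfap2b*, an AP-2 factor of amacrine cells, stood at 1159 CPM, beside 1048 in the annotated amacrine cells and 74.6 and 40.8 in the other sub-clusters. The whole list of 12 amacrine genes summed to 2886 CPM in these cells and 5192 in annotated amacrine cells. Of the 12, 5 were at least 2-fold higher than in the remaining explant cells and 4 at least 2-fold lower. *Neurog2*, a proneural factor of neurogenic progenitors, stood at 747 CPM against 19.3 and 10.2. Other progenitor genes did not follow: of 13 primary progenitor genes 1 was at least 2-fold higher and 12 at least 2-fold lower than in the remaining explant cells, and of 14 genes of G2 and mitosis 0 were higher and 12 lower.

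The P0 library named cells of this kind differently. Cells with at least 2 UMIs of both *Isl1* and *Tfap2b*, limits chosen after the values were seen, numbered 43 in the explants, of which 39 (90.7%) were annotated RGCs and 3 amacrine cells. At P0 there were 11 such cells, and all 11 were annotated amacrine cells and 0 RGCs. They came from all 5 P0 retinas, 1 to 4 in each, and from all 8 explants, 1 to 10 in each. Cells with at least 2 *Isl1* UMIs and a *Slc18a3* UMI were split the same way, with 31 of 31 annotated RGCs in the explants and 9 of 9 annotated amacrine cells at P0. Of the 31 explant cells, all lay in the *Sox2*/Tfap2b sub-cluster. Cells with at least 2 UMIs of both *Isl1* and *Pou4f1* were annotated RGCs in both libraries, 24 of 24 in the explants and 58 of 58 at P0. The P0 cells were deeper, so these counts compare names and not abundance.

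The other 2 sub-clusters carried the RGC markers. In the *Snhg11*/Meg3 sub-cluster, 111 of 119 cells (93.3%) had an *Ebf1* UMI, 78 (65.5%) a *Snhg11* UMI and 77 (64.7%) a *Pou4f1* UMI. In the *Tmsb4x*/Gap43 sub-cluster 24 of 25 cells (96.0%) had *Ebf1*, 20 (80.0%) *Pou4f1* and 6 (24.0%) *Snhg11*. Among the 5407 explant cells outside the RGC annotation, 177 (3.27%) had a *Pou4f1* UMI, 181 (3.35%) a *Snhg11* UMI and 230 (4.25%) an *Isl1* UMI. *Gap43*, a protein of growing axons, was at 3570 CPM in the *Tmsb4x*/Gap43 sub-cluster, 1514 in the *Snhg11*/Meg3 sub-cluster and 61.5 in the *Sox2*/Tfap2b sub-cluster. The actin-binding peptide gene *Tmsb4x* was at 7049, 1334 and 1334 CPM, and *Stmn2*, a microtubule regulator of growth cones, at 4509, 1925 and 1135. *Meg3* was at 2081, 6829 and 80.4 CPM in the same order.

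Explant RGCs differed from all other explant types in their mitochondrial and ribosomal protein RNA. Mitochondrial genes took a median of 20.6% of the UMIs of an RGC (interquartile range 11.99 to 25.2%) against 5.53 to 5.77% in the other 4 types. In 153 of the 200 cells (76.5%) the share was over 10%, as it was in 284 of 5407 other cells (5.25%). Ribosomal protein genes took 4.02%, against 9.78 to 20.6% in the other types, whereas the share of the nuclear noncoding RNA *Malat1*, 5.57%, lay within the 1.89 to 6.95% of the other types. This held in each explant taken alone: the median mitochondrial share of its RGCs lay between 13.5 and 24.4%, and that of its other cells between 5.36 and 5.99%. Of 13 mitochondrial genes, 12 were at least 2-fold higher than in the other explant cells, and of 87 ribosomal protein genes 74 were at least 2-fold lower, with a median log2 ratio of -1.22. The deposited tables do not say whether cells were filtered on mitochondrial share.

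**Figure D2:**
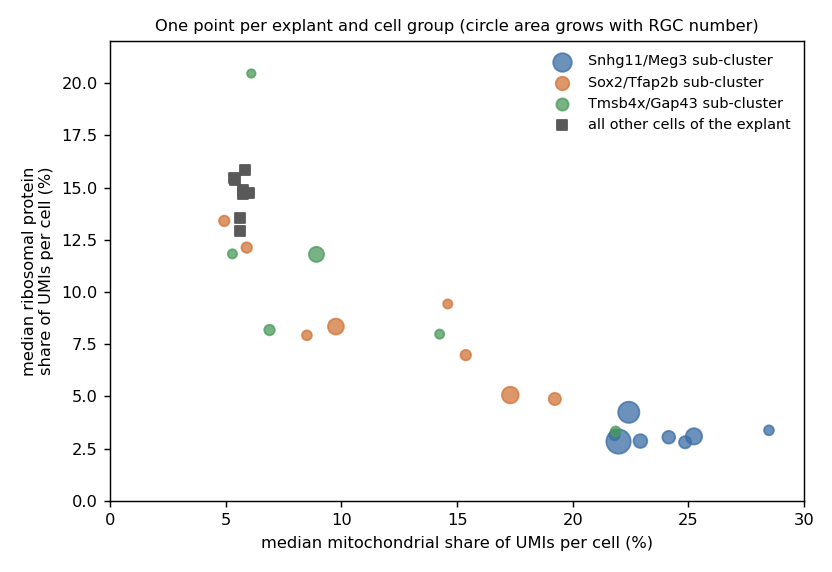
Median share of UMIs from mitochondrial genes (x axis, %) and from ribosomal protein genes (y axis, %), with 1 circle per explant and RGC sub-cluster, its area growing with the number of cells, and grey squares for all other cells of each explant. The squares sit together at 5.36 to 5.99% mitochondrial, and the Snhg11/Meg3 circles lie to the right of them at 21.8 to 28.5%.

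The sub-clusters divided on this measure as well. The *Snhg11*/Meg3 cells held a median of 22.8% mitochondrial, 3.12% ribosomal protein and 7.58% *Malat1* UMIs at 2802 UMIs per cell, and 116 of 119 were over 10% mitochondrial. The *Tmsb4x*/Gap43 cells held 7.28%, 9.88% and 1.56% at 3585 UMIs per cell, with 9 of 25 over 10%. The *Sox2*/Tfap2b cells held 10.2%, 8.60% and 4.30% at 3326 UMIs per cell, and 28 of 56 were over 10%, with an interquartile range of 6.55 to 23.4%. By explant, their median mitochondrial share was 14.6 to 19.2% at 0 and 5 nM and 4.93 to 9.76% at 50 and 500 nM. These medians rest on 2 to 17 cells each. Mitochondrial share thus moved with the sub-cluster that had the highest *Snhg11* and *Meg3*, and its part in that grouping was not tested.

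Genes of the usual stress programs were not set apart in the same way. Of 25 genes of the integrated stress and unfolded protein response with enough counts, 2 were at least 2-fold higher in RGCs than in the other explant cells and 0 lower, with a median log2 ratio of -0.18 beside -0.15 for all genes. *Atf4*, the central factor of that response, was at 142 CPM in RGCs, 105 to 156 in amacrine cells and progenitors of both kinds, and 319 in photoreceptors. Its target *Ddit3* was at 17.9 CPM against 14.9 to 52.8, and *Atf3*, an injury-induced factor, at 5.96 CPM against 0.469 to 9.84. Of 9 axon injury genes 1 was higher and 2 lower, of 16 p53 target and apoptosis genes 2 were higher and 0 lower, and of 7 heat shock genes 0 were either. The proapoptotic gene *Bbc3* was at 58.1 CPM against 8.42 to 25.6. Of 12 genes of hypoxia and glycolysis 0 were higher and 4 lower, and of 11 immediate early genes 0 were higher and 3 lower. In the *Sox2*/Tfap2b sub-cluster 4 of the 11 were higher, among them *Fos* at 497 CPM against 102 and 61.2 in the other sub-clusters.

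The lists of markers of cells from outside the neural retina differed in level. The 10 microglia genes summed to 8.94 CPM and the mesenchyme genes to 2.98, *Alas2*, the only erythroid gene of the list in the explant table, was at 0, and of the endothelial list *Kdr* alone was above 0, at 53.6 CPM. *Kdr* was higher outside the RGCs, at 90.0 CPM in the other explant cells together and 224 in primary progenitors. The list for pigment epithelium and lens summed to 55.1 CPM in RGCs and to 279 in the other explant cells, with the lens crystallin gene *Cryaa* at 28.3 CPM in RGCs. The sensory ganglion list summed to 176 CPM in RGCs and to 21.4 in the other explant cells, and 2 of its 3 genes with enough counts were at least 2-fold higher in RGCs. In P0 RGCs the list summed to 152 CPM, so this level was not particular to the cultured cells. Its most abundant gene was the neurotrophin receptor gene *Ntrk2*, at 68.5 CPM in explant RGCs and 51.5 in P0 RGCs. In explant RGCs *Prph* and *Sox10*, which define sensory neurons and their glia, were at 0. The list for other brain regions summed to 121 CPM, of which *Barhl2*, also an inner retinal gene, made up 103. Within the retina, 11 of 12 photoreceptor genes and 12 of 13 primary progenitor genes were at least 2-fold lower than in the remaining explant cells, and 0 were higher. The photoreceptor list still summed to 521 CPM in RGCs against 2376 in the other cells, with *Neurod1* its most abundant gene at 274 CPM, and the progenitor list to 733 against 3515, with *Sox2* the most abundant at 264 CPM.

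Mixed identity was counted after each cell was thinned to 2000 UMIs, which left out 5 RGCs. Of the other 195, 129 (66.2%) had a UMI of an RGC marker other than *Isl1* and of no starburst marker, 45 (23.1%) the reverse, 17 (8.72%, Clopper-Pearson 95% interval 5.16 to 13.6%) both and 4 (2.05%) neither. When at least 2 UMIs of a list were asked for, 134 had RGC markers only, 43 starburst markers only, 0 both and 18 neither. Thinned to 1000 UMIs, which kept all 200 cells, the 4 classes held 133, 39, 10 and 18 cells. Among the other explant cells thinned to 2000 UMIs, 9.83% had an RGC marker, 21.3% a starburst marker, mostly through *Sox2* in progenitors (46.9% of primary progenitors), and 1.95% both. All 85 P0 RGCs had RGC markers and 0 had a starburst marker at that depth.

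Single UMIs of other types were common in explant RGCs. At 2000 UMIs, 59.5% had a UMI of an amacrine gene, 27.2% of a photoreceptor gene, 23.6% of a primary progenitor gene and 20% of a gene of G2 and mitosis. In P0 RGCs at the same depth these shares were 23.5%, 9.41%, 4.71% and 5.88%. In the other explant cells, which include the types themselves, they were 61.4%, 53.8%, 56.0% and 32.6%. Without the *Sox2*/Tfap2b sub-cluster the shares in explant RGCs were 46.4%, 27.9%, 25% and 20%. Photoreceptor genes reached 22.7% of amacrine cells, so a share near that level was also seen in another neuron of the same library. Scrublet marked 6 of the 200 RGCs as doublets, 0 of them in the *Sox2*/Tfap2b sub-cluster. Free RNA and doublets below its limit were not tested.

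The explants were treated to learn whether *Sstr2* signaling changes the composition of the retina, so the RGC share was compared across doses. RGCs were 11 of 1075 cells in 0 nM explant 1 (1.02%, Clopper-Pearson 95% interval 0.512 to 1.82%) and 5 of 481 in 0 nM explant 2 (1.04%, 0.338 to 2.41%). At 5 nM they were 25 of 318 cells (7.86%, 5.15 to 11.4%) and 61 of 959 (6.36%, 4.90 to 8.10%), and at 50 nM 13 of 414 (3.14%, 1.68 to 5.31%) and 17 of 790 (2.15%, 1.26 to 3.42%). At 500 nM they were 10 of 682 (1.47%, 0.705 to 2.68%) and 58 of 888 (6.53%, 5.00 to 8.36%). Both 0 nM explants were lower than the other 6, both 5 nM explants were high, and the 500 nM explants lay apart, 1 near the controls and 1 near the 5 nM explants. These intervals cover counting error only.

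The mean share was 1.03% ± 0.0115 (SD, n = 2 explants) without agonist and 7.11% ± 1.06 at 5 nM. It was 2.65% ± 0.699 at 50 nM, and the 500 nM explants averaged 3.999% ± 3.58. The relation with log10 of the dose plus 1 did not pass the threshold over the 8 explants. Pearson's r was 0.16 (exact permutation p = 0.700 over 2520 arrangements, two-sided, adjusted p = 0.949 by Benjamini-Hochberg over 5 relations) and the rank correlation, Spearman's rho, 0.39 (exact permutation p = 0.361, adjusted p = 0.602). With both 500 nM explants set aside, the doses most distant from the median, a choice made after the data were seen, r was 0.20 (exact permutation p = 0.722). Leaving out 1 explant at a time gave r between -0.07 and 0.41. Among neurons alone the share ran from 1.43 to 14.0% and r was 0.23 (exact permutation p = 0.578).

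**Figure D3:**
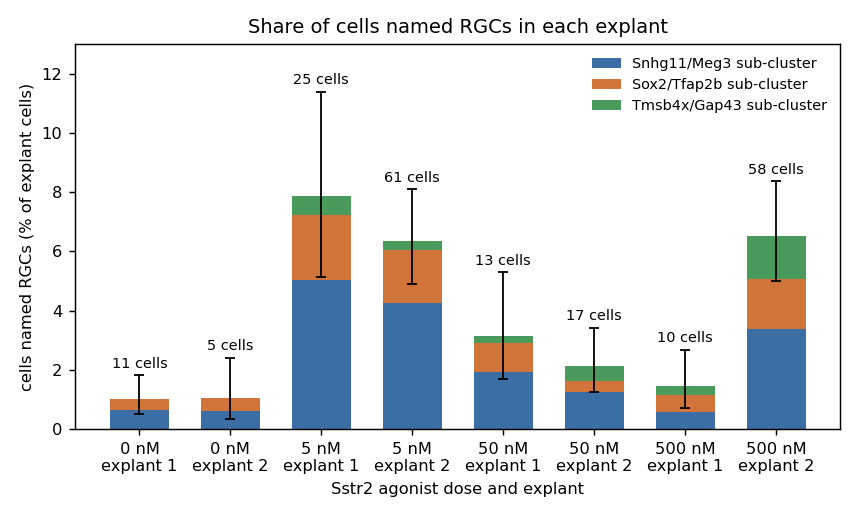
RGC share of the cells of each explant (%) by dose of Sstr2 agonist (nM), stacked by sub-cluster, with exact 95% binomial intervals and the number of RGCs above each bar. The 0 nM explants sit at 1.02 and 1.04%, the 5 nM explants at 7.86 and 6.36%, the 50 nM explants at 3.14 and 2.15%, and the 500 nM explants at 1.47 and 6.53%.

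All 8 explants held cells of the *Snhg11*/Meg3 and of the *Sox2*/Tfap2b sub-cluster. The *Snhg11*/Meg3 cells were 7 and 3 without agonist, 16 and 41 in the 5 nM explants, 8 and 10 in the 50 nM explants, and 4 and 30 in the 500 nM explants. The *Sox2*/Tfap2b cells were 4 and 2, 7 and 17, 4 and 3, and 4 and 15 in the same order, or 17.6 to 40% of the RGCs of an explant. The *Tmsb4x*/Gap43 cells were 0 and 0, 2 and 3, 1 and 4, and 2 and 13, so neither 0 nM explant held one among its 11 and 5 RGCs. Their share of all cells gave r = 0.64 with dose (exact permutation p = 0.0706, adjusted p = 0.353) and rho = 0.59 (exact permutation p = 0.140, adjusted p = 0.602). For the *Snhg11*/Meg3 share r was 0.03 (exact permutation p = 0.949) and for the *Sox2*/Tfap2b share 0.12 (exact permutation p = 0.777), with an adjusted p of 0.949 for both. With 16 RGCs at 0 nM, a count of 0 allows a share of up to 18.8% of these RGCs. The share of cells with a *Xist* UMI was 98.3 to 99.3% in 5 nM explant 1 and both 500 nM explants and 57.7 to 62.4% in the other 5, so the sex of the tissue differed between explants and moved with the highest dose, and its part in these shares was not tested.

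Genes of the RGCs were compared between 500 and 0 nM on the summed counts of each explant. The RGCs of an explant held 12913 to 206171 UMIs in all, and 1056 genes passed the filter on low counts. Of these, 0 (percentage called 0%) passed an adjusted p of 0.05 by the quasi-likelihood test of edgeR, adjusted by Benjamini-Hochberg. At an unadjusted p under 0.05 there were 82 genes by edgeR and 28 by DESeq2, which also called 0. The smallest p-values belonged to *Rpl22l1*, a ribosomal protein paralog, with a log2 fold change of 2.51 (SE 0.608, edgeR adjusted p = 0.0819), and *Tmsb4x*, with 1.44 (SE 0.364, edgeR adjusted p = 0.0819). The surface protein gene *Cd24a* followed with 2.56 (SE 0.685, edgeR adjusted p = 0.121), the cochaperone gene *Ptges3* with 2.29 (SE 0.69, edgeR adjusted p = 0.317) and *Rnf10*, a ubiquitin ligase gene, with -1.58 (SE 0.482, edgeR adjusted p = 0.317). *Tmsb4x* stood at 1007 and 1162 CPM without agonist, at 1751 and 1299 in the 5 nM explants, at 1827 and 3432 in the 50 nM explants, and at 3168 and 2925 in the 500 nM explants. The 500 nM explants were above both 0 nM explants, and 50 nM explant 2 was the highest of all. With 1 explant left out, the log2 fold change was 1.46 to 1.58 for *Tmsb4x* and 2.47 to 2.72 for *Cd24a*. The other genes moved further, with 1.85 to 3.09 for *Rpl22l1*, 1.87 to 7.85 for *Ptges3* and -2.63 to -0.63 for *Rnf10*. *Ptges3* was at 0 CPM in 0 nM explant 2.

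*Tmsb4x* and *Rpl22l1* passed without 50 nM explant 1, without 50 nM explant 2 or without 500 nM explant 1, and 0 genes passed without any one of the other 5. Where a 0 or 500 nM explant is left out, its dose keeps 1 explant, which is assumed to vary like the other groups. Without the *Sox2*/Tfap2b sub-cluster 13 of 613 genes passed by edgeR (2.12%), 12 higher (1.96%) and 1 lower (0.163%) at 500 nM. The 12 included 10 ribosomal protein or ribosomal protein-like genes, among them *Rps23* with a log2 fold change of 3.24, beside *Tmsb4x* with 1.60 (edgeR adjusted p = 0.0342) and *Camk2d*, and the gene that fell was *Prrc2b* at -1.83. The median ribosomal protein share of the RGCs was 3.37% in both 0 nM explants and 7.601 and 6.88% in the 500 nM explants, and *Tmsb4x*/Gap43 cells, which lead for both measures, were present at 500 nM only, of these 2 doses. A change of level in each cell and a change in which cells were present cannot be told apart in these sums. Cells with a *Xist* UMI were 58.7 and 61.1% in the 0 nM explants and 99.3 and 98.3% in the 500 nM explants. The part of sex in these gene differences was not tested.

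The explant RGCs were then set against P0 RGCs, the cells of the same name and nominal age that had not been cultured. The deposited explant cells held 1001 to 2499 genes each, and 0 of the 85 P0 RGCs lay in that range. P0 RGCs held a median of 24853 UMIs and 5358 genes, and the lowest held 3335 genes, whereas explant RGCs held a median of 3079.5 UMIs and 1463 genes. When the P0 cells were thinned by the ratio of the median UMIs of explant to P0 amacrine cells, 0.647, all 85 P0 RGCs held over 2499 genes, with a minimum of 2558. With the ratio of mean UMIs over all cells of the libraries, 0.456, 84 of 85 did, with a minimum of 2062. Of the other P0 types, 16.6% of amacrine cells, 21.98% of photoreceptors, 22.3% of neurogenic progenitors and 35.4% of primary progenitors did so at the first ratio, and 7.01, 11.997, 7.92 and 9.72% at the second. Whether an upper limit on genes per cell was applied to the explant cells before deposit, and what it removed, is not stated in the sources used here and was not tested. P0 RGCs held a median of 4.42% mitochondrial and 13.2% ribosomal protein UMIs, and 0 of 85 were over 10% mitochondrial.

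**Figure D4:**
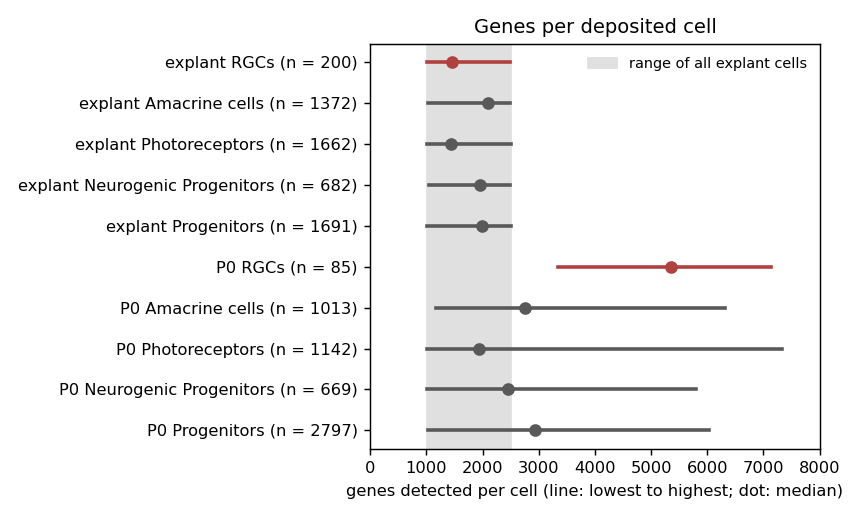
Genes detected per cell in the explant and P0 cell types, with a line from the lowest to the highest cell, a dot at the median and a grey band over the range of all explant cells. Explant cells lie between 1001 and 2499 genes, and the lowest of the 85 P0 RGCs lies at 3335.

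On summed counts 1994 of 3696 genes differed between explant and P0 RGCs by edgeR's quasi-likelihood test (54.0%), 991 higher (26.8%) and 1003 lower (27.1%) in explants. Without the filter on low counts 960 were higher and 2315 lower, so that the even split holds for the filtered genes. The log2 fold changes of all genes had a median of -0.02. Each side was 1 library, and culture, strain, depth, the range of genes per cell and the injury of dissection at E14 cannot be told apart. Of the 8 explants 6 had been given agonist, and 2 of the 5 P0 retinas were knockouts. *Xist*, which is transcribed from the inactive X chromosome of females, was at 3268 CPM in the pooled explant RGCs and 334 in P0 RGCs, and the part of sex in the comparison was not tested. Without the *Sox2*/Tfap2b sub-cluster 1562 of 2577 genes differed (60.6%), 795 higher (30.8%) and 767 lower (29.8%), and 1342 genes were called in both fits.

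The marker values depended on that sub-cluster. *Isl1* was 651 CPM at its lowest, 890 at the median and 1225 at its highest over the 8 explants, and 284 to 456 CPM in the 5 P0 retinas, which do not overlap. It rose by a log2 fold change of 1.21 (SE 0.151, edgeR adjusted p = 8.46e-09), and without the sub-cluster the value was -0.05 (edgeR adjusted p = 0.842). *Pou4f1* ran from 247 to 616 CPM in explants, with a median of 416, and from 516 to 922 in P0 retinas, so that the groups overlapped in part. It fell by 0.69 on the log2 scale (edgeR adjusted p = 0.000285), and the value was 0.01 without the sub-cluster. *Pou4f2* fell by 0.84 (edgeR adjusted p = 0.0211) and *Snhg11* by 0.56 (edgeR adjusted p = 0.0125), and neither passed without the sub-cluster, at -0.19 and 0.12. *Nell2* did not pass in either fit (-0.25 and 0.33). *Ebf1* did not pass over all RGCs, at 0.11, and stood at 0.82 without the sub-cluster (edgeR adjusted p = 0.000901). The cells left out were grouped on these same counts and held 14.2 CPM of *Ebf1*, and no P0 cells were left out. The value of 0.82 is therefore no test of a rise, and the same holds below for other genes low in that sub-cluster. Counted over the 6 markers, 1 rose and 3 fell over all RGCs. Without the sub-cluster 1, *Ebf1*, was called higher and 0 lower, under the same limit. By DESeq2, 1 rose and 2 fell over all RGCs.

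Of 20 tested RGC genes outside the markers, 3 rose and 15 fell, with a median of -1.07, and without the *Sox2*/Tfap2b sub-cluster 4 rose and 9 fell, with a median of -0.48. *Nefl*, the light neurofilament subunit, stood between 194 and 382 CPM in the 8 explants and between 1951 and 3154 in the P0 retinas. The groups were far apart, and it fell by 3.01 on the log2 scale (SE 0.175, edgeR adjusted p = 4.14e-18), or by 2.38 without the sub-cluster. *Sncg* stood between 77.4 and 827 CPM in explants and between 2986 and 3579 at P0, and fell by 3.24 (SE 0.224), or by 2.57 without the sub-cluster. *Uchl1*, a neuronal deubiquitinase gene, fell by 1.59, the medium neurofilament gene *Nefm* by 1.38, *Gap43* by 1.25, the neuronal tubulin gene *Tubb3* by 1.19 and *Stmn2* by 1.07. All 5 also fell without the sub-cluster, by 1.04, 0.78, 0.55, 0.72 and 0.68. In the 25 *Tmsb4x*/Gap43 cells alone *Gap43* stood 0.25 and *Stmn2* 0.08 above P0 on the log2 scale. Those cells were grouped on these same counts, with *Gap43* among their leading genes, so these 2 values carry no test. *Rbpms* fell by 0.89 and the glutamate transporter gene *Slc17a6* by 1.08 over all RGCs, and neither passed without the sub-cluster, at -0.19 and -0.39.

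Other RGC genes went the opposite way. *Klf7*, which promotes axon growth, rose by 0.59 (SE 0.143, edgeR adjusted p = 0.000602), and by 1.23 without the sub-cluster. *Ebf3* rose by 0.77, and by 1.43 without it, and *Islr2*, an axonal membrane protein gene, by 1.01 and 1.06. The pooled level of *Islr2* was 445, 544 and 480 CPM in the *Snhg11*/Meg3, *Sox2*/Tfap2b and *Tmsb4x*/Gap43 sub-clusters.

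**Figure D5:**
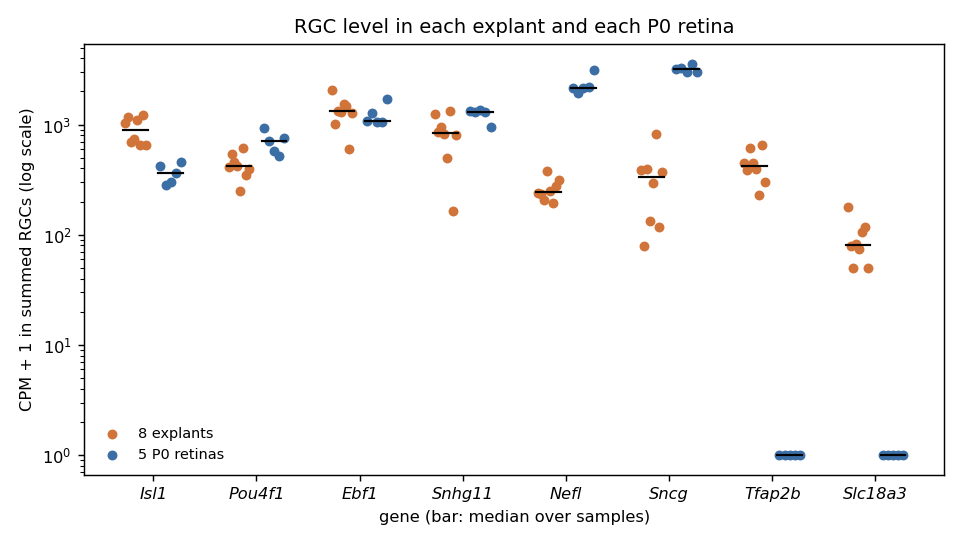
Level of 8 genes (CPM + 1, log axis) in the summed RGCs of each of 8 explants and 5 P0 retinas, with a bar at each group's median. Nefl and Sncg lie lower in all 8 explants than in all 5 P0 retinas, and Isl1 lies higher in all 8.

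By the naming rule, the largest rises over all RGCs were genes of the *Sox2*/Tfap2b sub-cluster. *Tfap2b* stood between 229 and 647 CPM in the 8 explants and at 0 UMIs in all 5 P0 retinas, at least 314-fold higher against a floor of 3 counts over the pooled P0 RGCs. *Neurog2* was at least 189-fold higher on the same floor, and *Slc18a3* at least 58.0-fold higher. *Sox2*, the membrane protein gene *Cmtm8*, *Hopx* and the actin-bundling protein gene *Espn* had 5, 2, 3 and 5 UMIs over all P0 RGCs, those of *Sox2* and *Hopx* all in knockout retina 1. Their pooled levels were 121-fold (50.8 to 376), 104-fold (27.6 to 878), 65.9-fold (21.5 to 329) and 40.9-fold (16.6 to 131) higher in explants, with exact 95% intervals for counting error only. *C2cd4b* rose by a log2 fold change of 5.80, *Ankrd28* by 3.51, *Vcan* by 3.45 and *Kcnk2* by 3.37. *Vcan*, the only one of the genes of this paragraph with enough counts to be tested without the sub-cluster, rose by 2.80 there.

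Among the largest falls, the synuclein gene *Sncb* was at 0 in 7 of 8 explants and between 97.9 and 170 CPM in the P0 retinas, and fell in the edgeR fit (adjusted p = 1.10e-12). Its level in explants rests on 1 UMI, and the pooled level was 95.6-fold lower than at P0, with an exact 95% interval of 17.03 to 3786 that covers counting error only. The neuronal calcium sensor genes *Hpca* and *Vsnl1* fell by 4.23 and 3.82 on the log2 scale, the calmodulin regulator gene *Pcp4* by 3.61, the sodium pump regulator gene *Fxyd7* by 3.58, *Fabp3*, a fatty acid carrier gene, by 3.56, *Resp18* by 3.39 and the selenoprotein gene *Selenom* by 3.35. *Hpca* and *Vsnl1* were at 0 in the median explant. *Hpca* rests on 5 UMIs in 3 explants and stood at -4.91 without 5 nM explant 2, and *Vsnl1* at -4.83 without 50 nM explant 2 and -3.22 without 500 nM explant 2. Each of these genes passed without the sub-cluster as well, those other than *Sncb* with falls between 2.89 for *Resp18* and 4.26 for *Hpca*. *Rpl29* fell by 3.48, and its level in the P0 retinas ran from 217 to 1410 CPM. Of 82 ribosomal protein genes 0 rose and 74 fell, with a median of -0.90, and of 13 mitochondrial genes 12 rose and 0 fell, with a median of 1.76. In the *Tmsb4x*/Gap43 cells alone, 28 of 78 ribosomal protein genes fell (median -0.32) and 9 of 11 mitochondrial genes rose (median 1.25), beside 12.9% lower and 10.6% higher of all 884 genes tested.

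Stress genes went in both directions in this comparison. Of all 3696 genes tested 26.8% were higher and 27.1% lower, and without the *Sox2*/Tfap2b sub-cluster 30.8% and 29.8% of 2577. The lists below are short, so their counts are given for description and not read as set apart from those shares. Of 8 tested genes of the integrated stress and unfolded protein response 5 rose and 2 fell: *Atf4* rose by 0.78 (edgeR adjusted p = 0.00318) and its target *Slc3a2*, an amino acid transporter subunit gene, by 1.26, whereas *Asns*, the asparagine synthetase gene and also a target, fell by 1.26. Of 6 p53 target and apoptosis genes 0 rose and 3 fell, among them the cell cycle inhibitor gene *Cdkn1a* by 2.49 and *Bbc3* by 0.86. Without the *Sox2*/Tfap2b sub-cluster 4 genes of this list could be tested, of which 0 rose and 1 fell. Of 5 heat shock genes 1 rose and 3 fell, among them *Hspa8* by 0.83 and *Hsp90ab1* by 0.62. Of 3 axon injury genes 2 rose, *Jun* by 0.88 and *Sox11* by 0.48, and *Stmn4* fell by 0.37. Without the *Sox2*/Tfap2b sub-cluster *Jun* and *Stmn4* did not pass, at 0.41 and 0.27, and *Sox11* rose by 1.02. Of 6 immediate early genes 3 rose and 1 fell, and *Egr1* rose by 1.59. Without that sub-cluster 3 of them could be tested, of which 0 rose and 1, *Fos*, fell by 1.44, and *Egr1* had too few counts.

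To set aside what all cells of a library share, the explant-to-P0 difference of RGCs was compared with that of amacrine cells of the same explants and retinas. It differed for 2481 of 7599 genes by edgeR (32.6%), being higher in RGCs for 1027 (13.5%) and lower for 1454 (19.1%). With DESeq2's size factors in the same fit the median over all genes moved from -0.08 to 0.11 and the split turned, with 1416 of 2508 calls higher (56.5% against 41.4%), so the balance of directions is not read here. Ribosomal protein genes fell further in RGCs than in amacrine cells for 79 of 84 and 0 were higher, with a median difference of -1.02, and all 13 mitochondrial genes were higher, with a median of 1.24. With DESeq2's size factors neither direction flipped, at 78 of 84 lower (median -0.80) and 13 of 13 higher (median 1.49). In the *Tmsb4x*/Gap43 cells alone the median over all genes tested was -0.67. The mitochondrial median of -0.19 lay above it and the ribosomal protein median of -1.09 below it, with 0 of 13 and 71 of 84 genes passing by edgeR, beside 12.9% of all 6994 genes tested, 12.2% lower and 0.758% higher.

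Among the genes named by the rule, *Tfap2b* had the highest fitted difference in RGCs, a value that rests on a group at 0. Its median was 419 CPM in explant RGCs and 0 in P0 RGCs, while amacrine cells stood at 1074 and 997 CPM. On the floor of 3 counts the difference was at least 8.21 for *Tfap2b* on the log2 scale. For *Slc18a3* it was 8.57 on the same floor, with an amacrine side of only 4 UMIs in explants and 34 at P0. Cells with *Isl1* and *Slc18a3* UMIs were annotated RGCs in the explants and amacrine cells at P0, which enters both sides of this difference. How much of it was naming was not tested. *Sox2* was at 316 and 0 CPM in RGCs and at 27.9 and 37.3 in amacrine cells, a difference of 7.30 (SE 0.417) and of 11.03 without knockout retina 1, which held all the P0 UMIs of *Sox2* in RGCs, and the secretogranin gene *Scg2* was at 283 and 30.9 against 12.1 and 37.9, a difference of 4.79. *Vcan* differed by 4.51. Without the *Sox2*/Tfap2b sub-cluster *Sox2*, *Scg2* and *Vcan* differed by 3.42, 2.14 and 3.59. With photoreceptors in place of amacrine cells *Scg2* and *Vcan* differed by 2.01 and 2.05, whereas the difference for *Sox2* was not smaller. On the lower side *Sncb* differed by -5.44 (-8.56 without 500 nM explant 2, which held its only UMI in explant RGCs), with 0 and 153 CPM in RGCs and 77.8 and 146 in amacrine cells, and *Sncg* by -3.54, with 332 and 3204 in RGCs and 5.36 and 7.45 in amacrine cells. *Pou4f1* differed by -3.73, but its amacrine levels were 5.95 and 0.574 CPM, so that the amacrine side of this difference rests on few counts. Of the 6 markers 2 were higher and 3 lower, and of 24 other RGC genes 2 were higher and 16 lower, with a median of -1.93. Without the *Sox2*/Tfap2b sub-cluster 2485 of 7556 genes differed (32.9%), 868 higher (11.5%) and 1617 lower (21.4%), and the counts of these lists were 2 and 2, and 5 and 15, with a median of -1.71 for the second list. Median amacrine levels were 1.75 CPM in explants and 0 at P0 for *Pou4f2*, and 1.64 and 0 for *Nrn1*. The counts and medians of both lists rest in part on such low amacrine counts, so they are not read as a loss particular to RGCs. Heat shock genes were lower in 5 of 8 and higher in 0, and of 17 genes of the integrated stress and unfolded protein response 3 were higher and 2 lower, with a median of 0.18.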

How the data were processed

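Retinas or explants were dissociated with papain, tagged with lipid-modified barcode oligos (MULTI-seq) and pooled, and 10x Chromium 3′ libraries were made. The deposited values were raw counts of UMIs for each gene and cell, SCT values, which the authors deposited as the natural log of corrected counts and which were not used here, and a table with each cell's sample and cell type. The submitters' processing notes name Cell Ranger 3.1.0, Seurat 3 and mm10. The explants held 1281682 to 4237324 UMIs and the P0 retinas 8822880 to 10793649.

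Counts were summed per explant or retina and cell type and tested in R 4.3.3 by the quasi-likelihood test of edgeR 4.0.16 (TMM scaling, its filter on low counts, Benjamini-Hochberg, threshold 0.05), with all groups in 1 fit for the dose comparison and each explant or retina as a block in the comparison with amacrine cells. DESeq2 1.42.0, DESeq2 size factors, no filter, leaving out each explant or retina, Scrublet-marked cells or P0 knockouts were alternatives; leaving out sub-clusters, mitochondrial genes, both 500 nM explants or, against P0, Scrublet-marked cells, and thinning P0 cells, were choices made once the data had been seen. The replicates were explants or retinas, not cells, and p-values measure the spread between them within 1 library per source. Sub-clusters came from Leiden clustering in scanpy 1.11.5 (1000 variable genes, 20 components, resolution 0.5), with Python 3.11.15. Binomial intervals are Clopper-Pearson at 95%, and the floor for a count of 0 is 3 counts. The tests were run first on simulated data.

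Named genes were those of the lists; the 20 genes highest and 10 lowest in RGCs against the other explant types; the 5 smallest p-values for dose; and the 10 largest rises and falls in the other fits among genes of at least 100 CPM on one side. The members and lists were chosen with earlier results of these data known.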

Additional observations from a re-analysis of the deposited data

Results flagged for a closer look

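The explant-to-P0 difference of the RGCs was higher than that of amacrine cells for 1027 genes and lower for 1454 by the edgeR interaction test, which is what brought these results here. The split turned with DESeq2's size factors in edgeR (1416 higher, 1092 lower) and by DESeq2 (1148 higher, 861 lower), so the balance is not read. Among those named by the rule, the higher differences on the log2 scale were 11.1 for *Tfap2b*, 9.74 for *Neurog2*, 8.03 for *Cmtm8*, 7.32 for *Hopx*, 7.30 for *Sox2*, 6.27 for the neuropeptide precursor gene *Pnoc*, 6.01 for *C2cd4b*, 5.42 for *Espn*, 4.79 for *Scg2* and 4.51 for *Vcan*. The lower differences were -5.44 for *Sncb*, -4.53 for *Pcp4*, -4.42 for the growth factor gene *Igf1*, -4.25 for *Nrn1*, -3.89 for *Pou4f2*, -3.79 for *Irx2*, -3.73 for *Pou4f1*, -3.64 for *Vsnl1*, -3.55 for *Fxyd7* and -3.54 for *Sncg*. The fitted values for *Tfap2b*, *Neurog2* and *Irx2* depend on the prior count, because a group was at 0. Computed against a floor of 3 counts over the pooled cells, they were at least 8.21 for *Tfap2b*, at least 6.93 for *Neurog2* and, for *Irx2*, -1.85. Several values moved by over 1.5 times with 1 library left out. Without knockout retina 1, *Hopx* was at 10.4, *Sox2* at 11.03, *Espn* at 7.09, *Pnoc* at 5.64 and *Pou4f2* at -4.75. Without 500 nM explant 2, *Sncb* was at -8.56 and *Igf1* at -3.71. *Igf1* was at -3.66 and *Cmtm8* at 8.62 without knockout retina 2, *Vsnl1* at -4.697 without 50 nM explant 2, and *Pnoc* at 7.02 and 5.56 without heterozygous retina 1 and wild-type retina 1. *Igf1* stood at a median of 54.1 CPM in explant RGCs and 43.8 in P0 RGCs, and at 2.19 and 0.536 CPM in amacrine cells, but its means in RGCs were 67.9 and 118 CPM, with 0 to 317 CPM in the P0 retinas. *Nrn1*, *Pou4f2* and *Pou4f1* had median amacrine levels of at most 5.95 CPM. With photoreceptors in place of amacrine cells *Pnoc* was at 0.27, *Vsnl1* at -3.93 and *Fxyd7* at -1.19, and none of these 3 passed (edgeR adjusted p = 0.391, 0.187 and 0.729), while *Scg2* and *Vcan* passed at lower values of 2.01 and 2.05. *Igf1* did not pass by DESeq2 (adjusted p = 0.127). For *Tfap2b*, *Neurog2*, *Sox2*, *Hopx*, *C2cd4b*, *Espn*, *Scg2* and *Vcan* the difference also passed without the *Sox2*/Tfap2b sub-cluster, and *Cmtm8* and *Pnoc* had too few counts there. All these differences were smaller there, at 8.37, 5.79, 3.42, 5.02, 2.49, 3.72, 2.14 and 3.59 in that order. Those of *Tfap2b* and *Neurog2* again depend on the prior count. Those passes rest on few UMIs: the remaining RGCs held 31 of *Tfap2b* (67.4 CPM), 9 of *Sox2* (19.6 CPM) and 8 of *Neurog2* (17.4 CPM). Explant photoreceptors and progenitors held *Tfap2b* at 56.8 and 45.6 CPM and explant amacrine cells *Sox2* at 27.0 CPM, and the part of free RNA in these levels was not tested. In the 25 *Tmsb4x*/Gap43 cells alone *Neurog2*, *Sox2*, *C2cd4b*, *Scg2*, *Hopx* and *Espn* did not pass, the last 2 of them below 0, and in the *Snhg11*/Meg3 cells alone *C2cd4b* did not.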

How the results depend on the processing

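Between explants and retinas, and between doses, no paired analysis was possible because the labels give no replicate numbers that they share, and the only block was that of each explant or retina in the comparison with amacrine cells. Of the alternatives for comparisons, 73 were on the same side, 9 moved a count past 1.5 times and 3 turned the sign of r. Leaving out 1 explant gave r of the RGC share against dose from -0.073 to 0.41, below 0 without 0 nM explant 1 (-0.036), 0 nM explant 2 (-0.034) or 500 nM explant 2. For 500 against 0 nM, 2 genes passed without the filter on low counts, 13 without the *Sox2*/Tfap2b sub-cluster, and 0 to 2 with 1 explant left out. For explant against P0 RGCs, 3275 genes passed without the filter, 1072 with wild-type and heterozygous P0 retinas only, and 208 with the *Tmsb4x*/Gap43 sub-cluster only, which holds 25 cells; with 1 explant or retina left out the count was 1390 to 1995. For the difference from amacrine cells it was 905 with that sub-cluster only, 53 of them higher, and 1994 to 2471 with 1 left out. Against P0, without the *Sox2*/Tfap2b sub-cluster, *Isl1* was -0.046, *Pou4f1* 0.0063, *Snhg11* 0.12 and *Nell2* 0.33 (log2). With the *Snhg11*/Meg3 sub-cluster only, *Isl1* was -0.28, *Pou4f2* 0.060, *Snhg11* 0.46 and *Nell2* 0.37. With the *Tmsb4x*/Gap43 sub-cluster only, *Pou4f1* was 0.43, *Nell2* 0.15, *Stmn2* 0.083, *Gap43* 0.25, *Hspa8* 0.034 and *Hsp90ab1* 0.17, and in the difference from amacrine cells *Hopx* was -1.52 and *Espn* -3.57. *Ebf1* was -0.31 without the filter on low counts. *Nell2* ran from -0.34 to 0.024 with 1 explant or retina left out, the highest without 500 nM explant 2. Of the values for single named genes, 1370 kept direction and side, 28 lost the call, 3 gained it and 18 turned. The 0 nM explants held 11 and 5 RGCs, 33773 and 12913 UMIs, so a gene had to be abundant to be tested for dose.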
